A study of Mus musculus with 6 samples.

Results

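Matrix metalloproteinases (MMPs) and their tissue inhibitors (TIMPs) were followed through 10 genes: Mmp2, Mmp9, Mmp11, Mmp14, Mmp19, Mmp23 and Timp1 to Timp4. Every probe set that the platform annotation assigns to 1 of these symbols was taken, which gave 25 of the 45101 probe sets on the array and 10 of its 18193 named genes. The 6 arrays carried total RNA of 3 granulosa cell tumors from Smad1/5/8 mutant mice and of 3 wild-type granulosa cell samples. Each wild-type sample pooled 2 to 3 C57BL/6J;129S5/SvEvBrd females aged 21 days, whose granulosa cells were isolated 44 to 46 hours after an injection of pregnant mare serum gonadotropin (PMSG), which drives follicle growth. The tumors received no treatment, per the labels, and were kept in an RNA storage solution before extraction. The sources used here do not say how the Smad genes were mutated, nor which strain, age or sex the tumor mice had. Solid tumor tissue was thus set against isolated and hormone-primed cells, so genotype, tumor growth, tissue makeup and priming cannot be told apart.

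MMPs are zinc-dependent endopeptidases that cut collagens, other matrix proteins and cell surface proteins. Most are made as inactive proenzymes, and TIMPs block the active enzymes by binding in their catalytic cleft. Mmp14, a membrane-anchored MMP, activates the Mmp2 proenzyme at the cell surface, and Timp2 takes part in that complex. In the ovary these enzymes and inhibitors take part in follicle growth, in rupture of the follicle wall at ovulation and in remodelling of the corpus luteum.

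Mmp2, Mmp11 and Timp3 had higher signals in tumors than in wild-type granulosa cells. On the log2 scale Mmp2 rose by 2.44 (limma SE 0.19, n = 3 per group), Timp3 by 1.28 (SE 0.17) and Mmp11 by 1.21 (SE 0.33). Mmp14, Mmp23, Timp1, Timp2 and Timp4 did not pass the test, and Mmp9 and Mmp19 were too dim to be tested. 0 of the 8 tested genes were lower in tumors, and 3 were higher. Over all 11611 genes tested, 14.5% were called higher and 12.6% lower (limma, Benjamini-Hochberg adjusted p below 0.05). The median log2 fold change was 0.65 over the 8 genes and -0.0049 over all genes tested. A count of 3 among 8 genes is small, and the genes are not replicates of each other.

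A gene was tested if 1 of its probe sets reached a signal of 100 on at least 3 of the 6 arrays, and its brightest such probe set stood for it. Of the 8 genes tested, 7 reached 100 on all 6 arrays, so their entry did not depend on 1 group. Timp4 reached it on 3 arrays. All fold changes were taken from log2(signal + 32), so that those of dim genes come out too small. Signals of different probe sets are not comparable as amounts of RNA, because probes differ in how well they bind. In tissue RNA a difference in the number of cells of a type and a difference in RNA per cell cannot be told apart.

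The upstream sequences of the called genes show what lies in front of their RefSeq starts. RefSeq (GRCm38.p6) gave a promoter for 7 of the 10 genes; Mmp2, Mmp9 and Mmp19 were among those not matched. The 250 bases before the start are printed 5′ to 3′ for Timp3 (chr10:86300162-86300411, plus strand) and Mmp11 (chr10:75932503-75932752, minus strand), the called genes that had an entry. Capitals mark matches, on either strand, to the GC box GGGCGG and to GGCGCC, a GC-rich element bound by BMP-activated Smads.
Timp3: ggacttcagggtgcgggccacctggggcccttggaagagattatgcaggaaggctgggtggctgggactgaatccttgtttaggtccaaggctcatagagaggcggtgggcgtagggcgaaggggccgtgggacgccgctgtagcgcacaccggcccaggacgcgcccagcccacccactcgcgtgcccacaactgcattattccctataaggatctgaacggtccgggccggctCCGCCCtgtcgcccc
Mmp11: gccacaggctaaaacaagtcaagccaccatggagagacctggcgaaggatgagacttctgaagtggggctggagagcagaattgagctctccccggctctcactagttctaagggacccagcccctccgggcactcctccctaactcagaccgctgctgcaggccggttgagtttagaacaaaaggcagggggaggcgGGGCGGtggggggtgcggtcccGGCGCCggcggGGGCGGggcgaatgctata
The Timp3 window held 1 GC box and the Mmp11 window 2, and 32.7% of 32851 RefSeq promoter windows of this length held at least 1. Mmp11 held 1 match to GGCGCC and Timp3 had 0, against 9.59% of all windows. The AP-1 motif TGANTCA, found in 6.75% of windows, had 0 matches in both. These are letter matches in a short window and no evidence of binding.

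Mmp2 encodes gelatinase A, which degrades the type IV collagen of basement membranes and denatured collagens. Its signal read 314, 468 and 366 in wild-type cells and 2024, 2560.0 and 2015 in tumors. The groups did not overlap, and the lowest tumor was 4.31 times the highest wild-type sample. The means were 383 ± 78.1 and 2199 ± 312 (SD, n = 3), with a limma adjusted p of 0.000509. Among the 11611 genes tested, Mmp2 ranked 151 by its log2 fold change. A second Mmp2 probe set read 577, 508 and 438 against 1665, 2461 and 1965, and rose by 1.92 on the log2 scale (SE 0.20; adjusted p = 0.00147 in limma over all 24168 probe sets). Both Mmp2 probe sets were thus higher in all 3 tumors, with tumor replicate 2 the highest in each.

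**Figure D1:**
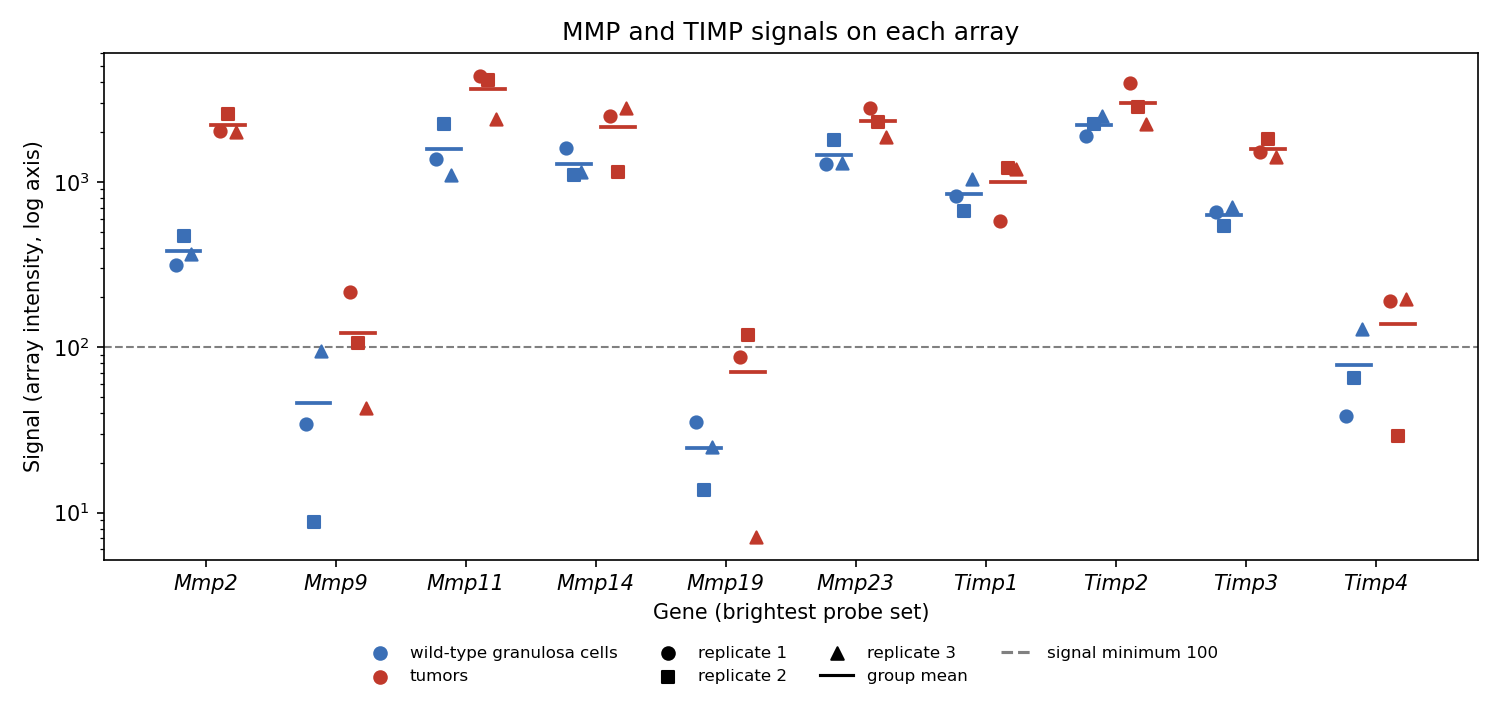
Signal of the brightest probe set of each gene on each of the 6 arrays (log axis), with wild-type samples in blue, tumors in red, marker shapes for replicate numbers, bars for group means and a dashed line at the signal of 100. The tumors lie above all wild-type samples for Mmp2, Mmp11, Mmp23 and Timp3, and Mmp9, Mmp19 and Timp4 lie around or below 100.

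Mmp11, or stromelysin-3, is an MMP that is activated inside the cell by furin-type proteases and is known from the stroma around carcinomas. It read 1373, 2249 and 1098 in wild-type cells and 4371, 4152 and 2386 in tumors. The groups did not overlap, but tumor replicate 3 and wild-type replicate 2 were 137 signal units apart. The means were 1573 ± 601 and 3636 ± 1088 (SD, n = 3; log2 fold change 1.21, 95% interval 0.43 to 1.98, limma adjusted p = 0.0338). The call was lost without wild-type replicate 1 (adjusted p = 0.105), wild-type replicate 3 (0.0992), tumor replicate 1 (0.0884) or tumor replicate 2 (0.0889). The calls of Mmp2 and Timp3 held without any 1 sample.

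Mmp23, a membrane-bound MMP first described in reproductive tissues, was just short of the threshold. It read 1286, 1801 and 1303 in wild-type cells and 2801, 2299 and 1863 in tumors. All tumors lay above all wild-type samples, with 61.7 signal units between tumor replicate 3 and wild-type replicate 2. The log2 fold change was 0.65 (95% interval 0.15 to 1.15, limma adjusted p = 0.0591). Its other probe set read 1120, 1535 and 1124 against 1930, 2066 and 1854 and did pass (log2 fold change 0.63, SE 0.18, limma adjusted p = 0.0431 over all probe sets). The gene passed without wild-type replicate 2 (adjusted p = 0.0469) and without tumor replicate 3 (0.0358).

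Mmp14 encodes the membrane-type enzyme that activates Mmp2. Its brightest probe set read 1614, 1100.1 and 1155 in wild-type cells and 2490, 1148 and 2809 in tumors. Tumor replicates 1 and 3 lay above every wild-type sample, and tumor replicate 2 lay among them. The log2 fold change was 0.64 (95% interval -0.17 to 1.46, limma adjusted p = 0.206). Without tumor replicate 2 it was 1.04, and Mmp14 passed (adjusted p = 0.0232). The next Mmp14 probe set showed the same low tumor replicate 2, with 905, 514 and 658 against 1091, 449 and 1014. The dimmest Mmp14 probe set did not: it read 429, 399 and 307 against 256, 440 and 417, with tumor replicate 1 the lowest. Log2 fold changes were 0.64, 0.23 and -0.05 over the 3 Mmp14 probe sets, so the tumor difference seen with the brightest was not shared by all.

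Mmp9, gelatinase B, is made by neutrophils and macrophages among other cells. Its brightest probe set read 34.2, 8.80 and 94.6 in wild-type cells and 215, 105 and 42.7 in tumors, and the other read 21.5, 7.50 and 6.20 against 196, 11.2 and 36.2. Tumor replicate 1 was the highest on both, and the groups overlapped. Neither reached 100 on 3 arrays, and with no filter on low signals the brighter had a log2 fold change of 0.96 (limma adjusted p = 0.306). Of 8 neutrophil markers on the array, 1 passed the filter, S100a8. S100a8, S100a9, Ngp and Camp were highest in tumor replicate 3, at 1124, 651, 321 and 109, and read at most 118, 95.7, 92.9 and 80.9 elsewhere. S100a9, Ngp and Camp did not pass the filter because they reached 100 on that array only. Csf3r was highest in tumor replicate 1 (147), as Mmp9 was, and Mpo in tumor replicate 2 (135, beside 133 in wild-type replicate 1). Elane and Cxcr2 did not reach 100 on any array. The brighter Mmp9 probe set had its lowest tumor value in tumor replicate 3. The part of neutrophils in the Mmp9 signal was not tested.

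Mmp19, a secreted MMP known from blood vessels and from periovulatory follicles, read 35.5, 13.7 and 24.9 in wild-type cells and 87.0, 118 and 7.13 in tumors. Its lowest value of all was in tumor replicate 3. A second Mmp19 probe set stayed below 100 on every array. Without a filter, Mmp19 had an adjusted p of 0.441 in limma at a log2 fold change of 0.66.

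Timp3 binds to the extracellular matrix and inhibits, besides MMPs, several ADAM and ADAMTS proteases. Its brightest probe set read 655, 540.0 and 701 in wild-type cells and 1515, 1806 and 1419 in tumors. The lowest tumor was 2.02 times the highest wild-type sample, with means of 632 ± 83.2 and 1580.0 ± 201 (SD, n = 3; limma adjusted p = 0.00274). The next Timp3 probe set rose by 1.43 (SE 0.19, limma adjusted p = 0.00317 over all probe sets). The 2 dimmer Timp3 probe sets, at 0.76 and 0.72 on the log2 scale, did not pass (limma adjusted p = 0.0622 and 0.128 over all probe sets). All 4 showed every tumor above every wild-type sample, while 20.3% of all 24168 probe sets tested did so and 23.3% had every tumor below.

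Timp2, which both inhibits MMPs and serves in the activation of Mmp2, was measured by 6 probe sets, of which 5 passed the filter. The brightest read 1903, 2245 and 2514 in wild-type cells and 3958, 2824 and 2256 in tumors. Tumor replicate 3 lay within the wild-type range, so the groups overlapped. The log2 fold change was 0.41 (95% interval -0.14 to 0.95, limma adjusted p = 0.231). All 5 passing Timp2 probe sets had log2 fold changes above 0, between 0.29 and 0.52, and 0 passed the test. Tumor replicate 1 was the highest tumor on each of these 5. In 2 of the 5 all tumors lay above all wild-type samples, while 20.3% of all 24168 probe sets tested did so and 23.3% had all tumors below. These 5 probe sets measure the same RNA. The sixth probe set stayed under 17 on every array.

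Timp1 encodes a secreted inhibitor that is induced by gonadotropins in the ovary and by inflammatory signals in many cells. It read 823, 666 and 1043 in wild-type cells and 583, 1222 and 1200.5 in tumors. Tumor replicate 1 was the lowest of all 6 samples and tumor replicates 2 and 3 the highest. The log2 fold change was 0.19 (95% interval -0.55 to 0.93, limma adjusted p = 0.685), and without 1 sample at a time it ranged from 0.01 (without tumor replicate 2) to 0.53 (without tumor replicate 1). Timp4, an inhibitor known chiefly from the heart, read 38.5, 64.8 and 129 in wild-type cells and 190, 29.0 and 196 in tumors. Tumor replicate 2 was the lowest of all 6 arrays, and the log2 fold change was 0.50 (95% interval -0.80 to 1.79, limma adjusted p = 0.536). Without tumor replicate 2 the Timp4 value was 1.12 (limma adjusted p = 0.0637). Without tumor replicate 1 or 3 Timp4 did not pass the filter, and with the gene kept it was at 0.19 and 0.17. Timp1, Timp3 and Timp4 each lie within the span of a synapsin gene, Syn1, Syn3 and Syn2. The brightest probe sets of these host genes did not reach 100 on any array.

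**Figure D2:**
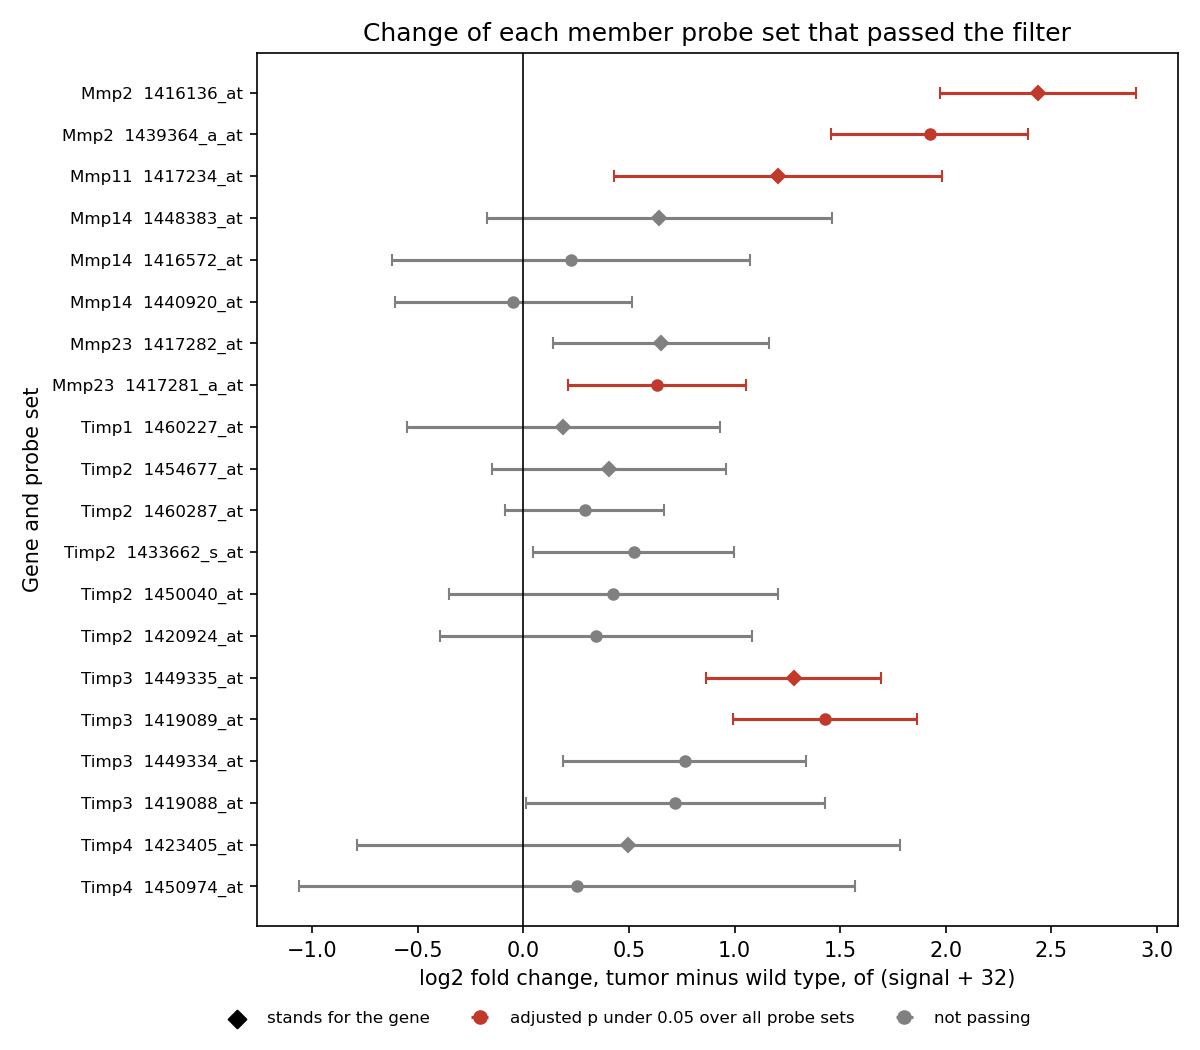
Log2 fold change of (signal + 32), tumor minus wild type, with its 95% interval from limma for each of the 20 probe sets that passed the filter; diamonds stand for the gene, and red marks a limma adjusted p below 0.05 over all 24168 probe sets. Both Mmp2 probe sets, the Mmp11 probe set, 1 of 2 for Mmp23 and 2 of 4 for Timp3 are red, and the values range from -0.05 to 2.44.

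By probe set, 6 of the 20 that passed the filter were called higher and 0 lower, against 11.1% and 11.9% of all probe sets tested. Probe sets of 1 gene measure the same RNA and do not count as separate results. By gene, the tumors lay wholly above the wild-type samples in 4 of the 8 (Mmp2, Mmp11, Mmp23 and Timp3) and wholly below in 0, against 23.7% and 22.6% of all genes tested.

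The tumors differed more from each other in some members than in others. Mmp2 and Timp3 varied little, with SDs of 0.19 and 0.18 on the log2 scale over the 3 tumors, against a median of 0.24 over all genes tested. Mmp14 (SD 0.69), Timp1 (0.59) and Timp4 (1.09) varied most of the 8. For Mmp14 7.32% of all genes tested had a larger SD between tumors, and for Timp4, whose signals lay near 100, 1.77% did. The highest tumor signal of Mmp14 was 2.45 times the lowest, and that of Mmp2 1.27 times. No single tumor was high throughout: tumor replicate 2 was the highest for Mmp2, Timp3 and Timp1 and the lowest for Mmp14 and Timp4.

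Ratios of an MMP to a TIMP signal on the same array do not depend on a scaling factor, apart from the pseudocount, and show whether 2 genes changed unequally. Of 5 pairs chosen, 4 could be computed, as Mmp9 was not tested. Relative to the wild-type mean, the log2 ratio of Mmp2 to Timp2 was -0.03, 0.26 and -0.23 in the wild-type cells and 1.49, 2.31 and 2.29 in the tumors. All tumors lay above, by a mean of 2.03. The log2 ratio of Mmp2 to Timp3 read -0.30, 0.49 and -0.19 against 1.10, 1.18 and 1.18, a mean difference of 1.16, also without overlap. Without tumor replicate 1 the Mmp2 to Timp3 difference was 0.75, with the other Mmp2 probe set standing for the gene. For both pairs the exact 2-sided permutation p was 0.1, the smallest that 3 against 3 samples can give, and 0.2 after Benjamini-Hochberg adjustment over the 4 pairs.

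The ratios of Mmp14 did not separate the groups. Its log2 ratio to Timp2 differed by 0.24 (exact permutation p = 0.7, adjusted 0.7) and that to Timp3 by -0.63 (exact permutation p = 0.3, adjusted 0.4). Tumor replicate 2 had the lowest value in both, at -0.49 and -1.62 relative to the wild-type mean, and tumor replicate 3 the highest tumor value. Without 1 sample at a time, the difference ranged from -0.19 (without tumor replicate 3) to 0.61 (without tumor replicate 2) for Mmp14 to Timp2, and from -0.95 (without tumor replicate 3) to -0.14 (without tumor replicate 2) for Mmp14 to Timp3.

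**Figure D3:**
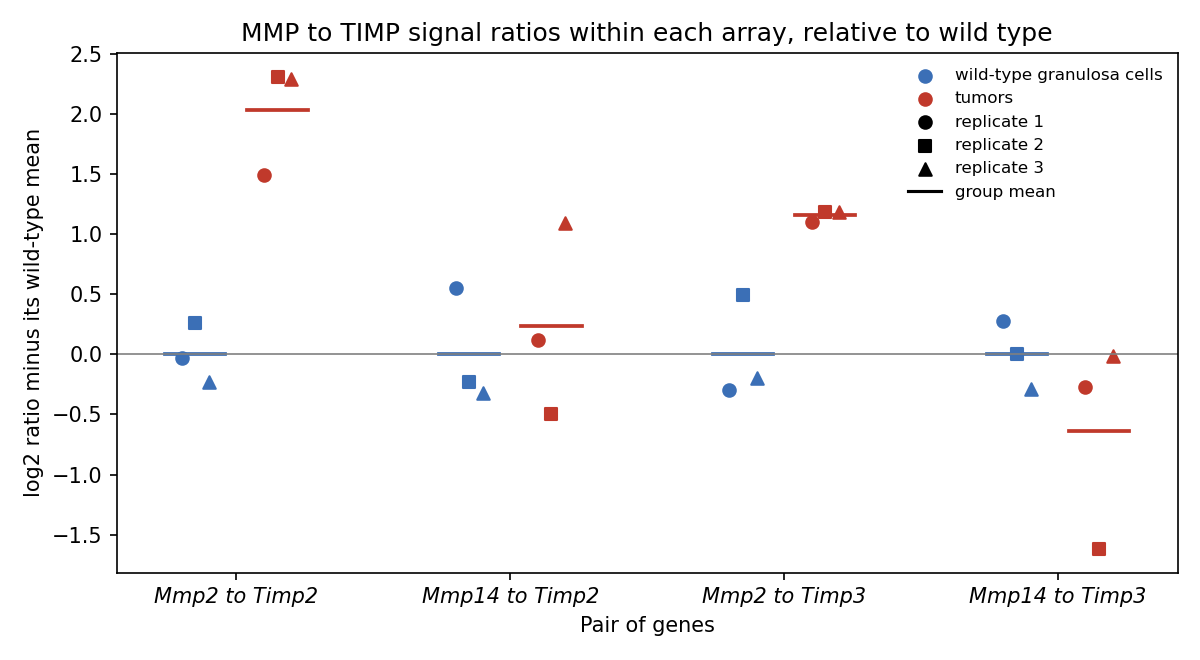
Log2 ratio of an MMP to a TIMP signal on each array, minus the mean of the 3 wild-type samples, with wild-type samples in blue, tumors in red, marker shapes for replicate numbers and bars for group means. The tumors lie above the wild-type samples for Mmp2 to Timp2 (mean difference 2.03) and Mmp2 to Timp3 (1.16) and overlap with them for both Mmp14 pairs.

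Other MMP genes were mostly dim in both groups. Of 12 on the array, 2 were tested, Mmp16 and Mmp17, and both did not pass (log2 fold changes of -0.13 and 0.42). The collagenase gene Mmp13 stayed under 48 and the stromelysin gene Mmp3 under 71 on every array. Of the MMP genes measured here, Mmp2, Mmp11, Mmp14 and Mmp23 were those with signals above 300 on every array.

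Among genes that activate, bind or clear MMPs, 7 rose and 1 fell out of 16 tested, with a median log2 fold change of 0.68. Over all genes tested, 14.5% were called higher and 12.6% lower. Cldn1, among the 7, read below 100 in every wild-type sample and entered the test through the tumors. The call of Itgav, also among the 7, held without wild-type replicate 2 but was lost without any other sample (limma adjusted p up to 0.139). The proprotein convertase genes Pcsk5 and Pcsk6 rose by 2.20 (SE 0.36) and 1.99 (SE 0.21), from means of 1244 ± 155 and 529 ± 86.3 to 6338 ± 3155 and 2214 ± 488 (SD, n = 3). Furin, chosen after its values were seen as a known activator of Mmp11 and Mmp14, rose by 0.91 (SE 0.26, limma adjusted p = 0.0413); the call held without tumor replicate 3 but was lost without any other sample (adjusted p up to 0.127). Reck, which encodes a membrane-anchored MMP inhibitor, fell from 1378 ± 194 to 794 ± 105 (log2 fold change -0.77, SE 0.17, limma adjusted p = 0.0173). Its call was lost without wild-type replicate 1 or tumor replicate 2 (adjusted p up to 0.0604).

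TIMPs, Timp3 among them, can bind some but not all ADAM and ADAMTS proteases. Of 11 tested ADAM and ADAMTS genes, 1 rose, 4 fell and 6 did not pass, and Adam8 and Adam9 were among those that fell. The Adam8 call held without wild-type replicate 2 and the Adam9 call without tumor replicate 3. Both were lost without any other sample (limma adjusted p up to 0.129 and 0.0838). Adamts1 fell by 1.76 (SE 0.18, limma adjusted p = 0.00112), and its call held without any 1 sample. Adamts5, an aggrecanase gene, had means of 2622 ± 1252 in wild-type cells and 499.9 ± 91.8 in tumors (SD, n = 3) and fell by 2.24 (SE 0.32, limma adjusted p = 0.0037). Adamts9 rose by 1.04 (SE 0.18). The median log2 fold change of these genes was 0.0047.

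Matrix genes whose products MMPs cut were higher in tumors in 9 of 14 cases, 1 was lower and 4 did not pass, with a median log2 fold change of 1.45. Col4a2, a chain of the type IV collagen that Mmp2 degrades, rose by 2.63 (SE 0.25), with means of 1297 ± 253 and 8312 ± 2383 (SD, n = 3). Bgn, a small proteoglycan gene, rose by 3.27 (SE 0.37), while Vcan, the versican gene, fell by 3.25 (SE 0.68, limma adjusted p = 0.0144). Of 7 genes of collagen uptake and lysosomal breakdown, 4 rose, 1 fell and 2 did not pass. Ctsk, the collagen-degrading cathepsin K gene, rose from 158 ± 65.2 to 728 ± 244 (log2 fold change 2.00, SE 0.33), and Ctsl, the cathepsin L gene, fell by 0.80 (SE 0.17, limma adjusted p = 0.0146), a call lost without wild-type replicate 3 (adjusted p = 0.0534).

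Most markers of stromal, vascular and myeloid cells were called higher in tumors, as Mmp2, Mmp11 and Timp3 were, while 14.5% of all genes tested were called higher. 10 of 10 fibroblast markers rose, and their summed signal was 13560 to 16580 in the wild-type cells and 44020 to 68020 in the tumors. 10 of 10 macrophage markers rose (2192 to 2571 against 12960 to 15530), as did 9 of 9 smooth muscle and pericyte markers (4788 to 6265 against 17450 to 32420) and 7 of 10 endothelial markers (1688 to 1984 against 5895 to 12180). 5 fibroblast markers, Col1a1, Col1a2, Col3a1, Dcn and Fap, also stand on the matrix or collagen uptake lists. Some, such as Fap, Flt1 and Vwf, read below 100 in every wild-type sample and entered the test through the tumors. The calls of Col1a1, Fbln2, Tek and Smtn were lost without any 1 of several samples (limma adjusted p up to 0.130, 0.128, 0.122 and 0.114). That of Des was lost without wild-type replicate 1 (limma adjusted p = 0.0530). The part of these cell types in the MMP and TIMP signals was not tested. Of 9 granulosa markers, 1 rose, 2 fell and 6 did not pass, and their summed signal was 111700 to 121200 in the wild-type cells and 80060 to 90990 in the tumors. Fshr, the gene of the follicle-stimulating hormone receptor, had means of 5686 ± 477 and 667 ± 395 (SD, n = 3) and fell by 3.23 on the log2 scale (adjusted p = 0.0036 in limma). Hsd17b1, an estrogen synthesis gene, fell from 21403 ± 2229.8 to 9372 ± 708, and Amh, the anti-Müllerian hormone gene, rose from 789 ± 759 to 2459.6 ± 451 (SD, n = 3; limma adjusted p = 0.0443). The wild-type samples read 456, 1658 and 253 for Amh. Its call held without wild-type replicate 2 but was lost without any other sample (limma adjusted p up to 0.133). Of 5 oocyte markers tested, 4 fell, among them Zp3 with means of 274 ± 75.6 in wild-type cells and 37.9 ± 36.7 in tumors (SD, n = 3). Zp1, Zp2 and Zp3 read below 100 in every tumor and entered the test through the wild-type cells. Of 7 entries on the theca and interstitial list, 2 rose, 1 fell and 4 did not pass. Gli1, which rose, read below 100 in every wild-type sample and entered the test through the tumors. Rlf, which did not pass, was taken as an older name of Insl3. It is also the symbol of a different gene, so this entry shows nothing on Insl3. Of 8 epithelial markers 0 rose and 1 fell.

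**Figure D4:**
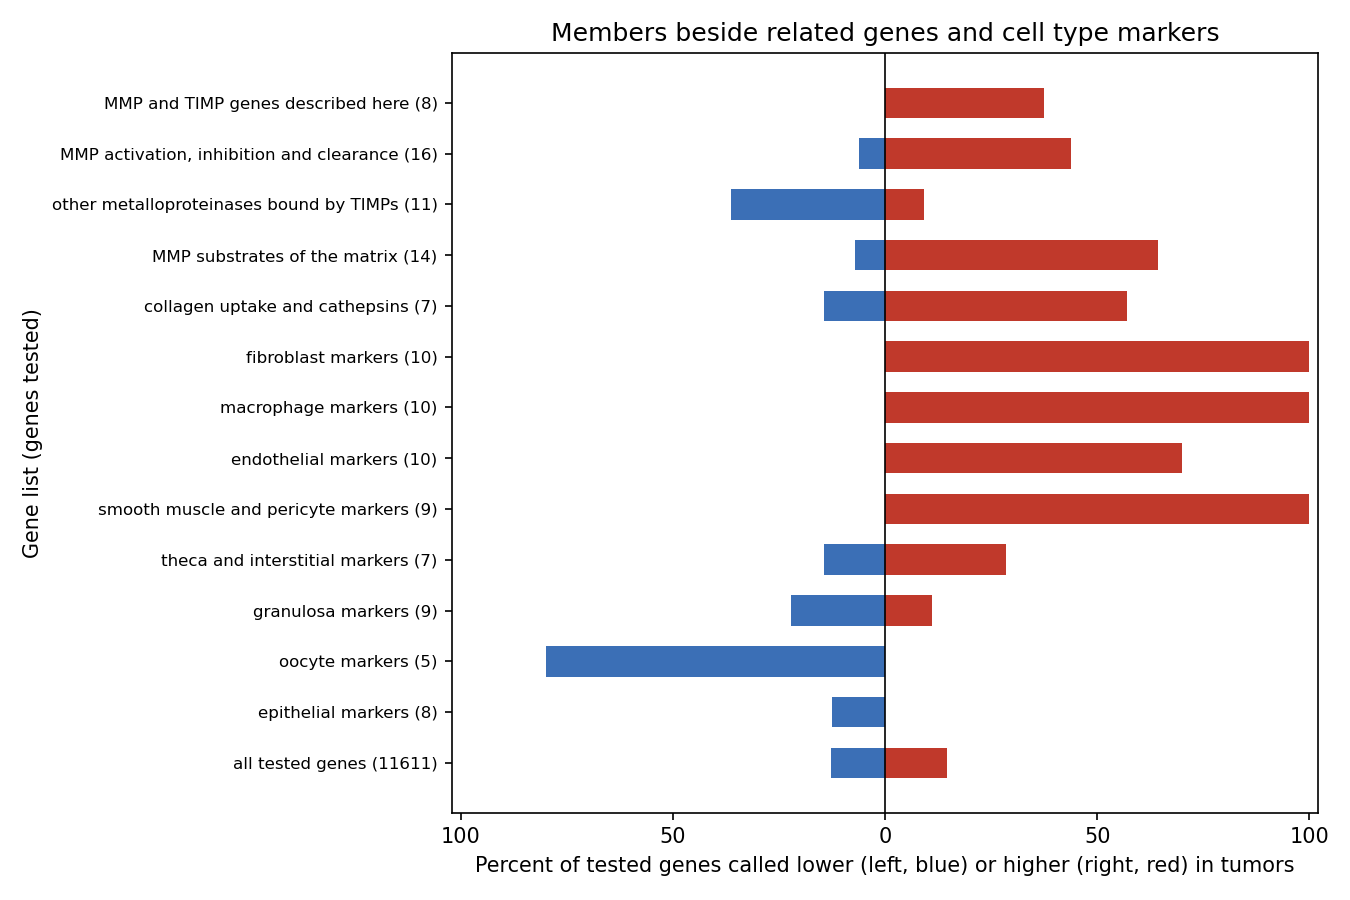
Percent of the tested genes of each list that were called lower (left, blue) or higher (right, red) in tumors by limma at an adjusted p under 0.05, for lists with at least 5 tested genes and for all 11611 tested genes. 3 of 8 MMP and TIMP genes are higher and 0 lower, beside 10 of 10 fibroblast and macrophage markers and 14.5% and 12.6% of all genes. The list labelled as other metalloproteinases bound by TIMPs holds ADAM and ADAMTS genes, and TIMPs bind only some of their proteases. The theca and interstitial list holds Rlf in place of Insl3, and Rlf is also the symbol of a different gene.

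Over the 6 arrays, the genes whose log2 signals followed Mmp2 most closely were Rbms3 and Rbms2, with a Pearson r of 0.998 for each. For Timp3 they were Use1 and Fscn1 (r = 0.997 and 0.996), and for Mmp11 2310022B05Rik and Klf13 (r = 0.996 and 0.995). These are the highest of 11610 correlations each, over arrays that fall in 2 groups, and carry no test. Of the 8 tested MMP and TIMP genes, 0 were among the 2 closest genes of another.

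All arrays were scaled to a trimmed mean of 500, and between 22565 and 25013 probe sets reached 100. RNA quality was read from control probe sets at both ends of a transcript: the log2 ratio of 3' to 5' signal was for Actb 0.447 ± 0.193 (SD, n = 3) in wild-type cells and 0.808 ± 0.209 in tumors, and for Gapdh -0.391 ± 0.0653 and -0.365 ± 0.113. Their part in the results was not tested. Scaled to the bacterial hybridisation controls, the median log2 fold change of all genes moved to -1. Of all genes tested, 3.2% were then called higher and 66.2% lower, and the counts below are to be read against these shares. Under that scaling Mmp2 still rose (0.91, limma adjusted p = 0.0203), Timp3 (0.26) and Mmp11 (0.17) lost their calls, and Timp1 was called lower (-0.83, limma adjusted p = 0.033). Mmp14, Mmp23, Timp2 and Timp4 had log2 fold changes below 0 under that scaling, between -0.63 and -0.21. Of the activating and clearing genes, 4 of 16 were then higher and 4 lower (median -0.27), with Furin at -0.09. Of the matrix genes, 5 of 15 were higher and 3 lower (median 0.35). Of the ADAM and ADAMTS genes, 0 of 12 were higher and 7 lower, with Adamts9 at 0.03. Of the genes of collagen uptake and lysosomal breakdown, 1 of 6 was higher and 2 lower (median -0.08). The cell type markers still higher were 5 of 9 for fibroblasts, 5 of 10 for macrophages, 7 of 9 for smooth muscle and pericytes and 4 of 10 for endothelium, and 0 of these were lower. Of the other marker lists, 7 of 9 granulosa, 5 of 5 oocyte, 5 of 8 epithelial and 3 of 7 theca and interstitial markers were lower under that scaling. These 7 theca and interstitial entries again include Rlf in place of Insl3.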

How the data were processed

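Total RNA of 6 mouse samples was hybridised to 1 Affymetrix array each. The deposited values are linear intensities, 1 signal per probe set, made with MAS5 (wild-type arrays) or GCOS (tumor arrays), per the submitters' processing notes, with no version given; software and group cannot be told apart. Each array was scaled again to a trimmed mean of 500 (2% left out at each end). Values were tested as log2(signal + 32) with limma 3.58.1 in R 4.3.3 (2-sided, Benjamini-Hochberg over all 11611 tested genes). The test was also run on simulated data in which all genes had the same SD in both groups. In the data the median SD was 0.19 over wild-type samples and 0.24 over tumors, so that run does not cover their unequal spread. Probe sets were named from GEO's platform annotation, using those with 1 symbol. Replicates were the labels' separate samples: tumors the series calls independent, and wild-type pools, so no single wild-type female was measured. The number of arrays limits the precision. Named genes were all 10 members and, per list, up to 2 called genes with the largest rise and 2 with the largest fall, of which those a sentence turns on are printed, and the 2 genes most like each tested member. Furin, Mmp3, Mmp13, Mmp16, Mmp17, Adam8, Adam9, Insl3, the neutrophil markers and the synapsin genes were named outside this rule, after their values were seen. So were Flt1 and Cldn1 for low wild-type signals, and Zp1 and Zp2 for low tumor signals. Fbln2, Tek, Smtn, Des and Itgav were named for calls lost without 1 sample. Col1a1, Col1a2, Col3a1, Dcn and Fap are named because they stand on more than 1 list. The members and the lists were chosen with earlier results of these data known. Tables and figures used Python 3.11.15, pandas 2.3.3 and matplotlib 3.10.9.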

Additional observations from a re-analysis of the deposited data

How the results depend on the processing

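Over 17 alternatives, the number of MMP and TIMP genes called higher was 2 to 4 and of those called lower 0 under 16 of them. Scaled to the hybridisation controls, 1 was higher and 1 lower, Timp1 at -0.83, and all genes split into 377 higher and 7801 lower. With each probe set tested by itself, 2676 probe sets were higher and 2884 lower. Without 1 sample at a time, all genes called ranged from 886 to 1507 higher and from 596 to 1421 lower; members from 2 to 4 higher. Mmp2 kept its call under all 17, with log2 fold changes of 0.91 to 2.58. The mean difference of Mmp2 to Timp3 ranged from 0.75 to 1.40 without 1 sample; the lowest, without tumor replicate 1, came with the other Mmp2 probe set standing for the gene. With the same genes and probe sets kept, an alternative chosen after seeing the data, Mmp2 ranged from 2.31 to 2.58. Mmp11 also lost its call with no filter on low signals (adjusted p = 0.0682), and Mmp23 passed with a pseudocount of 100, a signal minimum of 200, the mean of passing probe sets and a robust prior with intensity trend. The replicate numbers did not pair the samples (correlations of deviations -0.0449, 0.0276 and 0.09; 3 of 6 samples correlated best with their own number). With the replicate number as a block, 1464 genes were higher and 1138 lower, and the calls of the 8 tested genes did not change. Mmp9, Mmp19 and Timp4 lay around the signal minimum of 100, so signal over background limits what their values show.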
